A study of Raphanus sativus with 12 samples.

Results

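SOC1 (SUPPRESSOR OF OVEREXPRESSION OF CO 1) and AGL42 are related MADS-box transcription factors, and 3 radish genes described by these names were followed here in leaf blades of flowering-stage and vegetative plants. The 3 were chosen by gene identifier out of 30161 genes in the deposited expression table: the SOC1-like copies Rsa10006202 and Rsa10039427, and the AGL42-like gene Rsa10033610. They were picked with their difference between the ages already known, so that difference is described below and not tested. The leaves came from the diploid radish (Raphanus sativus) material XHT at 120 days after sowing, in reproductive growth, and at 30 days, in vegetative growth. All plants received 16 hours of light at 25 °C and a dark night at 23 °C, and no treatment was given. RNA of 3 biological replicates per age, each pooling leaves of 3 plants, was sequenced as input, an ordinary RNA-seq library, and after immunoprecipitation of RNA carrying N6-methyladenosine (m6A). Age and growth stage changed together, so their parts cannot be told apart.

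In Arabidopsis, SOC1 is an integrator of flowering signals. The repressors FLC and SVP hold it down in young plants, while FT with its partner FD, gibberellin and SPL proteins switch it on, and SOC1 with its partner AGL24 then activates LEAFY in the shoot tip. AGL42, also called FOREVER YOUNG FLOWER, is known there for promoting flowering in side shoots together with AGL71 and AGL72, and for delaying the senescence and shedding of floral organs.

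Levels are FPKM, fragments scaled to transcript length and library size, as deposited by the authors, and read depth is unknown. FPKM summed to between 636795 and 694436 per library. Across genes, on the log2(FPKM + 1) scale, Pearson's r was 0.971 to 0.985 within the 120-day group and 0.944 between 30-day replicates 1 and 2, while 30-day replicate 3 stood apart from these at 0.835 and 0.895. The labelled tissue was checked by markers: 36 of 38 leaf blade genes (small subunits of ribulose bisphosphate carboxylase, chlorophyll a-b binding proteins and YABBY regulators) passed the filter on low values, and their summed level was 71188 to 94451 FPKM at 120 days and 12474 to 16107 at 30 days. Most of each 30-day sum came from a ribulose bisphosphate carboxylase gene (Rsa10035184), with 9279, 9292 and 10352 FPKM in replicates 1, 2 and 3. Most chlorophyll a-b binding genes tested were lowest of the 30-day libraries in replicate 3, such as Rsa10020583 with 519, 620 and 20.5 FPKM. The tested ones that were highest there instead were Rsa10039062 (315, 296 and 520 FPKM), Rsa10016996 (4.12, 6.07 and 10.46) and Rsa10030712 (21.73, 25.28 and 50.22). The filter kept genes with at least 1 FPKM in at least 3 of the 6 input libraries.

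Both SOC1-like copies and the AGL42-like gene were higher in every 120-day library than in any 30-day library. The SOC1-like copy on R04 (Rsa10006202, R04 from 42438945 to 42442221, minus strand, genome build not given in the sources used here) had 33.20, 27.46 and 37.57 FPKM in 120-day replicates 1, 2 and 3, against 0.67, 0.29 and 1.35 FPKM in the 30-day replicates. The ages were far apart, and among the 30-day libraries replicate 3 was the highest. Its mean was 32.7 ± 5.07 FPKM at 120 days and 0.77 ± 0.537 at 30 days (SD, n = 3 each), a difference of 4.29 on the log2(FPKM + 1) scale with a standard error of 0.25.

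The SOC1-like copy on R01 (Rsa10039427, R01 from 1121341 to 1123716, plus strand) had 30.88, 38.70 and 41.15 FPKM at 120 days, against 5.81, 5.13 and 1.25 FPKM in 30-day replicates 1, 2 and 3. Here too the ages did not overlap, but 30-day replicate 3 was the lowest library and not the highest. The means were 36.9 ± 5.36 FPKM at 120 days and 4.06 ± 2.46 at 30 days (SD, n = 3 each). The difference on the log2(FPKM + 1) scale was 3.05 with a standard error of 0.43, and 2.54 without 30-day replicate 3.

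The AGL42-like gene (Rsa10033610, R09 from 7207584 to 7211502, plus strand) had 18.29, 20.02 and 14.76 FPKM at 120 days, against 0, 0.11 and 0 FPKM in 30-day replicates 1, 2 and 3. It was thus listed at 0 in 2 of the 3 younger libraries, where a listed 0 may be a failed estimate, and no ratio of FPKM was formed. The difference was 4.16 on the log2(FPKM + 1) scale and 7.11 with a pseudocount of 0.1, so its size is set by the pseudocount. All 3 genes passed the filter, the AGL42-like gene through its 120-day libraries alone.

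In the authors' deposited table the log2 fold of 120 over 30 days was 5.41 for the R04 copy, 3.18 for the R01 copy and 8.86 for AGL42-like. Among the 21435 genes tested, 11.6% had all 120-day values above all 30-day values, and 49.1% had all of them below; nothing is read from this for the 3 genes, since the same contrast chose them. By size of the log2(FPKM + 1) difference they stood at ranks 54 (R04 copy), 181 (R01 copy) and 63 (AGL42-like) of those 21435. These ranks restate the contrast that chose the 3 genes, and that of AGL42-like also depends on the pseudocount. In abundance, the R04 copy lay between the 87.0th and 91.0th percentile of all genes in the 120-day libraries and between the 20.7th and 33.0th in the 30-day libraries. The R01 copy lay between the 88.0th and 91.8th percentile at 120 days and between the 32.3rd and 50.7th at 30 days. These are bulk leaf samples, in which fewer cells of a type and less RNA per cell cannot be told apart.

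**Figure D1:**
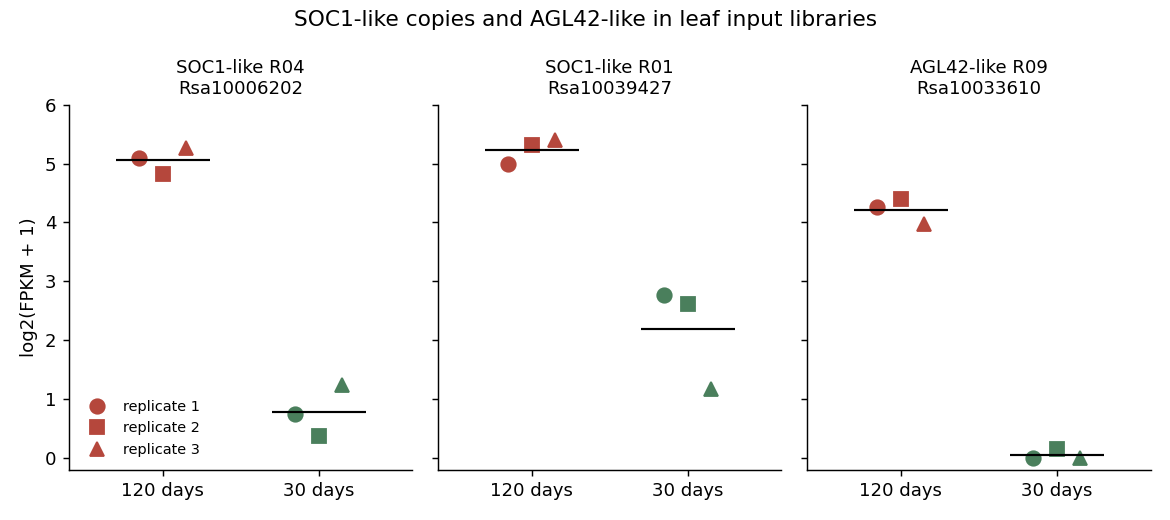
Levels of the SOC1-like copies on R04 and R01 and of AGL42-like, as log2(FPKM + 1), in each input library of 120 and 30 days; symbols mark the replicate and lines the mean of 3 libraries. All 120-day points lie above all 30-day points in each panel, and 30-day replicate 3 is the highest of its age for the R04 copy and the lowest for the R01 copy.

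The SOC1-like copies contributed about evenly at 120 days and unevenly in most of the younger libraries. Their summed level was 64.08, 66.16 and 78.72 FPKM in 120-day replicates 1, 2 and 3, against 6.48, 5.42 and 2.60 FPKM in the 30-day replicates. The R04 copy made up 51.8%, 41.5% and 47.7% of that sum at 120 days, against 10.3%, 5.35% and 51.9% at 30 days. In 30-day replicates 1 and 2 the R01 copy therefore dominated. In 30-day replicate 3 the R04 copy had 1.35 FPKM and the R01 copy 1.25 FPKM. Both were close to the filter of 1 FPKM, so the even split there is uncertain. The log2 ratio of the R04 over the R01 copy, both as FPKM + 1, was −0.17 ± 0.29 at 120 days and −1.40 ± 1.28 at 30 days (SD, n = 3 each), and −2.14 ± 0.16 at 30 days without replicate 3 (n = 2). At 120 days the ranges of the copies overlapped (27.46 to 37.57 FPKM for the R04 copy and 30.88 to 41.15 for the R01 copy), so their order there is within the spread. The handling of reads that fit both copies was not stated, so the split between the copies is less certain than their sum.

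**Figure D2:**
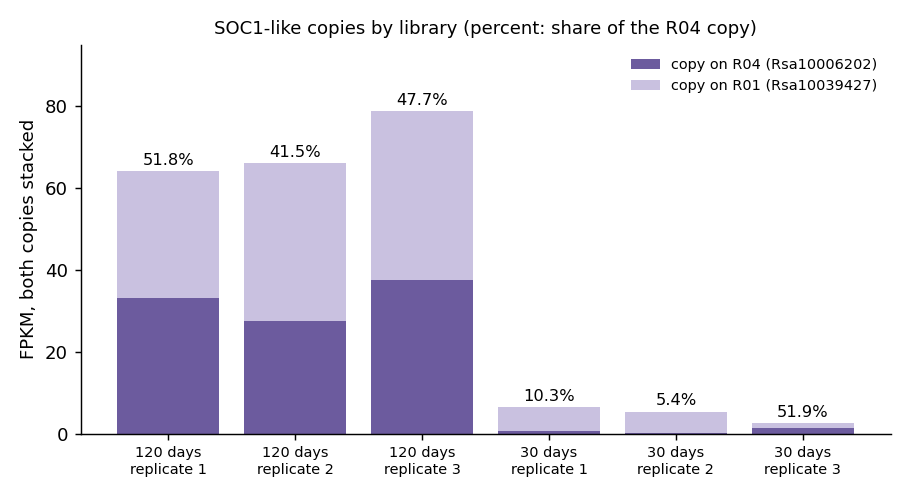
FPKM of the SOC1-like copies on R04 and R01, stacked, in each input library, with the share of the R04 copy written above each bar. The 120-day bars reach 64.08 to 78.72 FPKM with shares of 41.5% to 51.8%, and the 30-day bars 2.60 to 6.48 FPKM with shares of 5.35% to 51.9%.

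SOC1 belongs to a branch of the MADS-box family that also holds AGL42, AGL71, AGL72, AGL14 and AGL19. Besides the 3 genes, 9 described by these names were in the table and 5 passed the filter; by limma over all genes tested, 1 rose and 2 fell at 120 days. Over all genes tested 8.4% were called higher and 37.6% lower, with a median log2 difference of −0.45, against 0.84 for the 5 relatives, a count too small to set the relatives apart. AGL71 (Rsa10003514) rose, with 5.79, 3.65 and 3.70 FPKM at 120 days, against 0.67, 0 and 0.78 FPKM at 30 days (log2 difference 1.88, limma adjusted p = 0.00525). Its neighbour AGL72 (Rsa10003515) lies 6199 bases away on R09 with no gene between them, and whether they share reads is not known. It had 2.04, 1.01 and 1.22 FPKM against 0.82, 0 and 0.29 FPKM at 30 days (log2 difference 0.84), which fell just short of the threshold (limma adjusted p = 0.0502) and passed it after median centring (0.0166). The ages did not overlap in either gene, and 30-day replicate 2 was at 0 in both.

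A second AGL42 gene, Rsa10019613 on R01, behaved unlike AGL42-like at 30 days. It had 23.52, 19.44 and 23.02 FPKM at 120 days, against 11.27, 1.58 and 16.83 FPKM in 30-day replicates 1, 2 and 3. At 120 days its level was thus close to that of AGL42-like, whereas at 30 days it was well above it in every library. Its log2 difference of 1.47 did not pass (limma adjusted p = 0.12). Without 30-day replicate 3 it was 2.03 and passed (adjusted p = 0.0331), and without 30-day replicate 2 it was 0.63.

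AGL19 and AGL14, which promote flowering in Arabidopsis, were lower in the older leaves. AGL19 (Rsa10004026), linked there to the response to cold, had 11.66, 11.84 and 11.80 FPKM at 120 days, against 28.09, 21.05 and 28.09 FPKM at 30 days (log2 difference −1.05, limma adjusted p = 0.00473). AGL14 (Rsa10006293) had 8.82, 20.53 and 15.19 FPKM against 31.89, 33.70 and 54.23 FPKM at 30 days (log2 difference −1.40, limma adjusted p = 0.0186). Both fell without overlap of the ages, but the call for AGL14 was lost after median centring (adjusted p = 0.0969), after quantile normalization (0.0787) and without 120-day replicate 3 (0.0587). Of the other AGL19 genes, both below the filter, Rsa10025629 had 2.74, 5.05 and 0.50 FPKM at 120 days, against 0, 0 and 0.03 at 30 days.

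Since the SOC1-like copies and AGL42-like were chosen by this same contrast, the make-up of the branch is described and not tested. Summed over the 12 genes, its level was 139 to 149 FPKM at 120 days and 62.2 to 105 FPKM at 30 days. The SOC1-like copies and AGL42-like took 58.3% to 62.6% of that sum at 120 days and 2.47% to 8.88% at 30 days, while AGL14 alone took 6.33% to 13.9% at 120 days and 40.0% to 54.1% at 30 days. By mean level at 120 days the R01 and R04 copies of SOC1 came first, followed by AGL42 (Rsa10019613), AGL42-like, AGL14 and AGL19. Neighbours in that order overlapped in their ranges except the R04 copy of SOC1 (lowest 27.46) and AGL42 (highest 23.52). At 30 days AGL14 and AGL19 came first and AGL42-like was ninth of the 12.

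**Figure D3:**
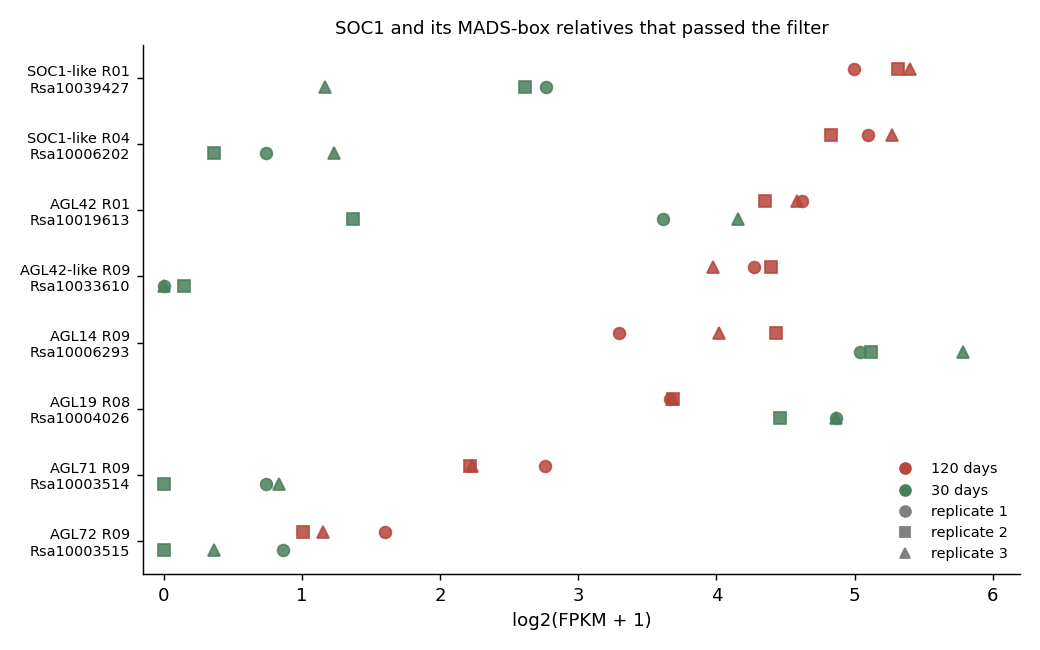
Levels, as log2(FPKM + 1), of the SOC1-like copies, AGL42-like and the 5 related MADS-box genes that passed the filter, ordered by mean FPKM at 120 days; each symbol is 1 library, with 120 days drawn above 30 days in each row. AGL14 and AGL19 run opposite to the SOC1-like copies, with all 30-day points to the right of the 120-day points.

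Among the genes that act upstream of SOC1 in Arabidopsis, the copies of FLC were far lower in the older leaves. Of 25 repressors of SOC1 or of its activator FT, 24 were tested, and by limma 13 fell and 4 rose (54.2% and 16.7%, beside 37.6% and 8.4% of all genes tested). Their median log2 difference was −0.82, against −0.45 over all genes. After median centring 8 fell and 4 rose, beside 2188 and 2968 of all 21435 genes tested. The falls included all 3 copies of FLC, with log2 differences of −5.29 (Rsa10036313), −4.02 (Rsa10024990) and −2.30 (Rsa10013589). They also included MAF5-like (Rsa10016139, −2.01), a relative of FLC, and AGL18 (Rsa10024243), a repressor of FT and SOC1. This AGL18 gene had 0.20, 0.29 and 0 FPKM at 120 days, against 8.09, 6.76 and 12.18 FPKM at 30 days (log2 difference −3.08, limma adjusted p = 0.00153).

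The 4 repressors that rose were named after their values were seen, apart from SVP-like. TEM1 and TEM1-like encode TEMPRANILLO proteins, which repress FT in young Arabidopsis. TEM1 (Rsa10039960) had 42.96, 37.65 and 21.72 FPKM at 120 days, against 4.29, 7.49 and 0.15 FPKM at 30 days (log2 difference 3.18, limma adjusted p = 0.0158). Its value was 2.33 without 30-day replicate 3, which was its lowest library, and it no longer passed without 120-day replicate 1 or 2 (adjusted p up to 0.0579). TEM1-like (Rsa10040564) had 10.77, 11.89 and 6.32 FPKM against 0.85, 0.76 and 1.19 FPKM at 30 days (log2 difference 2.43, adjusted p = 0.00241). These repressors were thus high in the same libraries as the SOC1-like copies. The others were RAP2-7 (Rsa10028611, log2 difference 0.78), which lost its call without 120-day replicate 1 or 2 (adjusted p up to 0.0596), and SVP-like (Rsa10010012, 0.57). SVP-like lost its call under several alternatives, among them no filter, no trend and a fit without any library except 30-day replicate 3 (adjusted p up to 0.132). SVP itself (Rsa10028999) had 37.10, 43.61 and 38.36 FPKM at 120 days, against 35.26, 45.48 and 32.17 FPKM at 30 days, with full overlap of the ages (log2 difference 0.09, adjusted p = 0.696).

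Of 10 activators 5 were tested, of which FT rose and FD-like fell (20% each, beside 8.4% and 37.6% of all genes tested). This count is too small to set the activators apart. FT (Rsa10015765), the mobile flowering signal made in leaves, had 20.11, 2.51 and 8.14 FPKM at 120 days, against 0.29, 0 and 0.59 FPKM at 30 days (log2 difference 2.79, limma adjusted p = 0.0144). It did not pass without 120-day replicate 3 (adjusted p = 0.0545), and the log2 difference was 2.16 and 3.45 without 120-day replicates 1 and 2. Among the 120-day libraries FT (Rsa10015765) was highest in replicate 1, and the summed SOC1-like level was lowest there and highest in replicate 3. A relation between these levels was not tested. An FT-like gene below the filter (Rsa10033877) had its highest levels at 30 days instead. It had 0.57, 0 and 0.32 FPKM at 120 days, against 6.5, 0 and 4.08 FPKM in 30-day replicates 1, 2 and 3. Its ages overlapped, and in 30-day replicates 1 and 3 it was above FT (Rsa10015765). FD-like (Rsa10026866), the partner of FT, had 0.71, 0.14 and 0.61 FPKM against 5.28, 3.88 and 4.68 FPKM at 30 days (log2 difference −1.93, adjusted p = 0.00274). A second FD-like gene (Rsa10026475, log2 difference −0.18) and the SPL9 genes, which activate SOC1 in the age pathway, did not pass; SPL9 Rsa10011266 had a log2 difference of −0.09. SPL9 Rsa10039188, at −1.32, had 2.68, 5.40 and 4.66 FPKM at 120 days, against 12.11, 4.56 and 27.48 FPKM at 30 days, and passed without 30-day replicate 2 (log2 difference −1.92, adjusted p = 0.0153).

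Partners and targets of SOC1 were mostly not called. Of 22 genes 16 were tested, with 2 higher and 2 lower (12.5% each, beside 8.4% and 37.6% of all genes tested). Median centring gave 5 higher and 2 lower, beside 2968 and 2188 of all 21435 genes tested. The list median was 0.45 against −0.45 over all genes. AGL24 (Rsa10021770), the partner of SOC1, had 20.79, 23.47 and 21.54 FPKM at 120 days, against 25.06, 10.80 and 35.83 FPKM at 30 days. The 120-day libraries lay inside the range of the 30-day libraries (log2 difference 0.03, limma adjusted p = 0.958). AGL24-like (Rsa10036639) was at 2.39 ± 0.878 and 4.33 ± 1.05 FPKM at 120 and 30 days (SD, n = 3 each; adjusted p = 0.0737).

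SPL3 and SPL4 are direct targets of SOC1 in Arabidopsis, and 1 copy of SPL3 rose and 1 copy of SPL4 fell. SPL3 (Rsa10038631) rose, with 4.22, 5.08 and 5 FPKM against 0.81, 0.90 and 0.35 FPKM at 30 days (log2 difference 1.79, limma adjusted p = 0.00255). SPL4 (Rsa10027473) fell, with 0.63, 0.29 and 0.41 FPKM against 10.18, 6.34 and 3.89 FPKM at 30 days (log2 difference −2.36, adjusted p = 0.00378). The other tested copies did not pass, and they were named after their values were seen. SPL3 Rsa10016970 had a log2 difference of 1.33 (adjusted p = 0.0525, and 0.0302 after median centring), and SPL3 Rsa10004936 of 0.77 with overlapping ages (adjusted p = 0.17). The SPL4 copy Rsa10009118 had 7.65, 7.11 and 6.23 FPKM at 120 days, against 15.76, 10.71 and 4.38 FPKM at 30 days. Its ages overlapped, and its log2 difference was −0.35 (adjusted p = 0.495) and 0.08 after median centring.

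DREB1D (Rsa10002124), of the cold-response family that SOC1 represses in Arabidopsis, rose with 26.21, 16.78 and 4.67 FPKM against 0.15, 0.74 and 0.34 FPKM at 30 days (log2 difference 3.33, adjusted p = 0.00675, and 3.98 without 120-day replicate 3). A GATA21-like gene (Rsa10019397), of a pair of chlorophyll-related regulators that SOC1 also represses there, fell with 1.76, 2.26 and 2.55 FPKM against 14.87, 8.55 and 35.10 FPKM at 30 days (log2 difference −2.47, adjusted p = 0.0088, and −1.96 without 30-day replicate 3). Other GATA21-like genes, also named after their values were seen, were more abundant and had positive differences that did not pass. GATA21-like Rsa10032694 had 45.13, 33.98 and 48.63 FPKM at 120 days, against 28.37, 33.08 and 18.19 FPKM at 30 days (log2 difference 0.69, adjusted p = 0.0678, and 0.0301 after median centring). GATA21-like Rsa10023855 had 37.23, 25.43 and 30.09 FPKM against 19.56, 11.50 and 37.80 FPKM at 30 days (log2 difference 0.55, adjusted p = 0.295). The ages overlapped only in the second of these.

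AGL8, the FRUITFULL gene that acts beside SOC1, did not pass in its most abundant copies (Rsa10019670, log2 difference −0.19, adjusted p = 0.814; Rsa10001156, 1.15, adjusted p = 0.0724). AGL8 Rsa10001156 passed under some alternatives, among them median centring (adjusted p = 0.0356), quantile normalization (0.0306) and leaving out 30-day replicate 1 (0.0401).

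**Figure D4:**
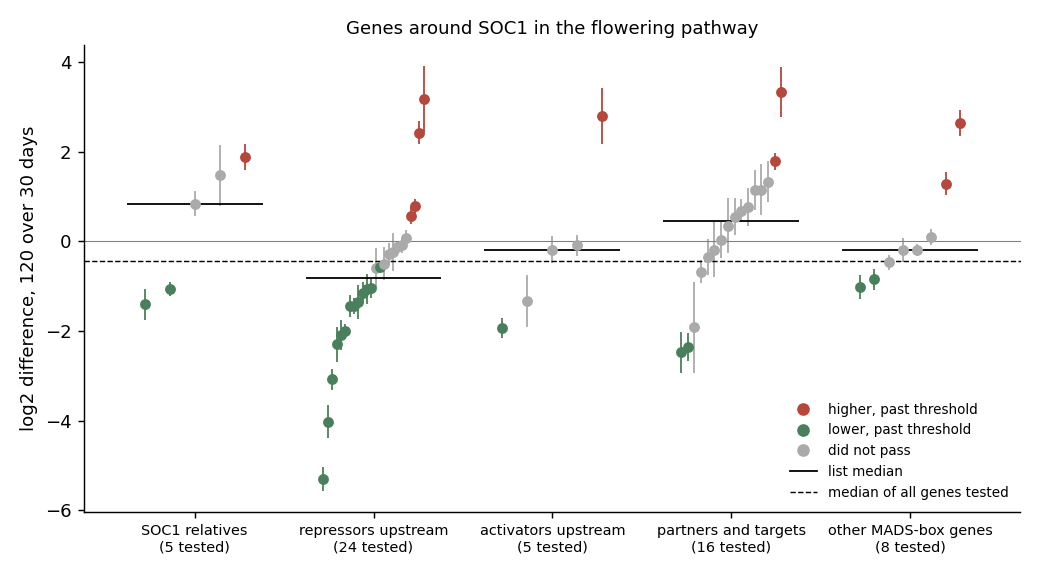
Log2(FPKM + 1) difference of 120 over 30 days, with limma standard errors, for the tested genes of 5 lists around SOC1; colours mark calls, short lines the list medians and the dashed line the median of all genes tested (−0.45). The repressors hold 13 falls and 4 rises, and the partners and targets 2 of each.

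Of the remaining 46 MADS-box genes only 8 reached the filter, 2 of them called higher and 2 lower (25.0% each, beside 8.4% and 37.6% of all genes tested). AGL3 (Rsa10020725), of the SEPALLATA group of floral organ regulators, had 9.07, 4.12 and 5.01 FPKM at 120 days, against 0, 0 and 0.27 FPKM at 30 days (log2 difference 2.64, limma adjusted p = 0.00258). AGL80 genes moved both ways, with log2 differences of 1.29 (Rsa10027426, adjusted p = 0.00993) and −1.02 (Rsa10040177, adjusted p = 0.0257). The second AGL80 call and that of MADS-box transcription factor 23-like (Rsa10022850, −0.84, adjusted p = 0.0273) were both lost after median centring (adjusted p = 0.194 and 0.293).

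Markers of floral organs and shoot meristem, tissues in which SOC1 is also active, were low in these blades. Of 16 floral organ genes (AP3, PISTILLATA, AGAMOUS, SEPALLATA and SHATTERPROOF types, some also counted among the other MADS-box genes), 11 stayed under 1 FPKM in all 6 libraries. AGL3 was the only one tested. The summed level of these floral organ genes was 7.90 to 11.34 FPKM at 120 days and 4.50 to 7.59 FPKM at 30 days. AGL3 itself gave 9.07, 4.12 and 5.01 FPKM of the 120-day sums. Below the filter, AGL1 (Rsa10002728) had 0.52, 0.12 and 0 FPKM at 120 days, against 2.79, 0.86 and 5.98 FPKM at 30 days. AGAMOUS (Rsa10006897) was also lower without overlap of the ages. AGL9 (Rsa10040518) and SEPALLATA 2 (Rsa10003778) were higher without overlap, but under 1 FPKM in every library. All 6 meristem genes (KNAT1 and CUP-SHAPED COTYLEDON types) were under 1 FPKM in every 120-day library, with sums of 0.30 to 0.44 FPKM at 120 days and 1.44 to 3.52 FPKM at 30 days. Of 18 genes with pollen names 10 were tested and 3 fell, beside 37.6% of all genes tested, and 8 stayed under 1 FPKM in all 6 libraries. Their sums were 289 to 317 FPKM at 120 days and 289 to 444 FPKM at 30 days. Most of each sum came from Rsa10021402 (107 to 134 FPKM at 120 days and 148 to 173 at 30 days) and Rsa10025309 (134 to 147 and 92.3 to 140 FPKM). Of the 36 leaf blade markers tested, 17 rose, 1 fell and 18 were not called, beside 8.4% higher and 37.6% lower over all genes tested. Those that rose were 12 chlorophyll a-b binding genes, 4 of the ribulose bisphosphate carboxylase small subunits and 1 of 8 YABBY genes. Their part in the difference of the SOC1-like copies and AGL42-like was not tested.

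Like most genes tested, those on either side of the 3 were mostly lower or not called at 120 days. Of the 18 genes within 3 places on either side, 15 were tested, with 1 higher and 8 lower, beside 8.4% and 37.6% of all genes tested, and log2 differences from −1.75 to 0.90. After median centring 2 were higher and 3 lower, beside 2968 and 2188 of all 21435 genes tested. Beside the R04 copy, UTP:RNA uridylyltransferase 1 (Rsa10006203) lies 844 bases away and had 29.00, 27.51 and 25.48 FPKM at 120 days, against 40.00, 35.37 and 34.76 FPKM at 30 days (log2 difference −0.41, limma adjusted p = 0.0425, lost after median centring at 0.897). Beside the R01 copy, another MADS-box gene, AGL6 (Rsa10039426), lies 2568 bases away on the opposite strand. It was at 0.32, 0 and 0 FPKM at 120 days and at 0 in all 30-day libraries. On the other side of the R01 copy, the transcription factor TCP9 (Rsa10039428) fell, with 2.59, 3.55 and 3.08 FPKM against 9.39, 9.34 and 16.63 FPKM at 30 days (log2 difference −1.61, adjusted p = 0.0054). Beside AGL42-like, the only neighbour that rose was an uncharacterized gene 9849 bases away (Rsa10033609), with 6.02, 4.19 and 3.02 FPKM against 2.74, 1.68 and 1.25 FPKM at 30 days (log2 difference 0.90, adjusted p = 0.0406).

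**Figure D5:**
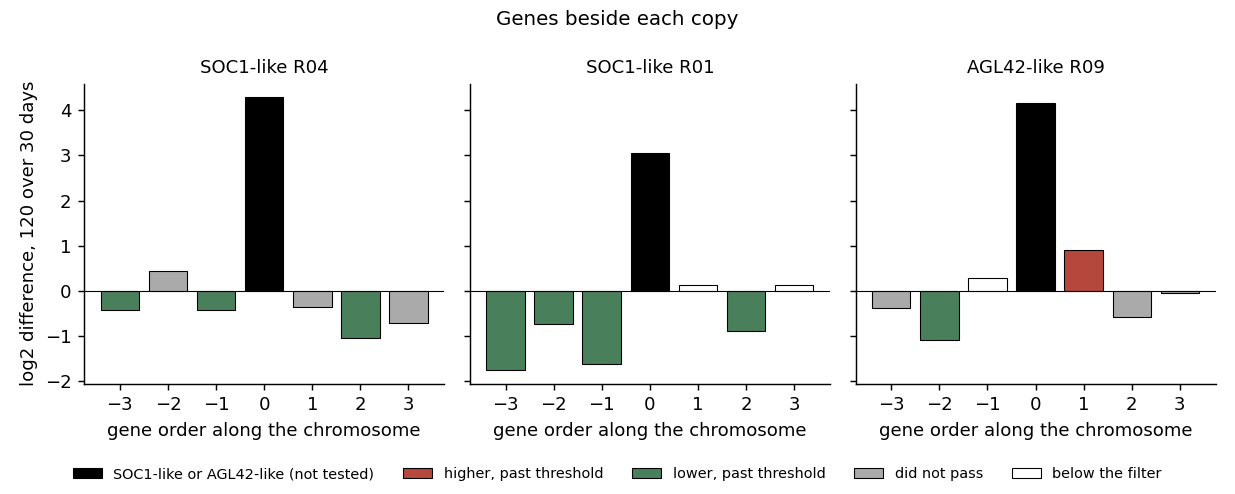
Log2(FPKM + 1) difference of 120 over 30 days for each of the 3 genes (order 0, black) and the 3 genes on either side of it along its chromosome. Flanking values run from −1.75 to 0.90; the values of the SOC1-like copies and AGL42-like, 3.05 to 4.29, are those by which they were chosen.

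Likeness in level and pattern was measured as the root-mean-square difference of log2(FPKM + 1) over the 6 libraries, across 16078 tested genes with an informative description. For the R04 copy of SOC1 the nearest was a pectinesterase/pectinesterase inhibitor 3-like gene (Rsa10034893, 0.23), with 25.20, 30.32 and 35.33 FPKM at 120 days and 1.10, 0.42 and 1.44 at 30 days. Next were late embryogenesis abundant protein 2 (Rsa10030424, 0.42), BON1-associated protein 1 (Rsa10024002, 0.43), a tonoplast dicarboxylate transporter-like gene (Rsa10015719, 0.46) and ATP phosphoribosyltransferase 1 (Rsa10017832, 0.54). For the R01 copy they were dihydrodipicolinate reductase-like CRR1 (Rsa10032450, 0.40), a CBL-interacting kinase 6 gene (Rsa10010328, 0.46), ribose-phosphate pyrophosphokinase 3 (Rsa10037669, 0.46), coleoptile phototropism protein 1-like (Rsa10042623, 0.46) and another pectinesterase/pectinesterase inhibitor 3-like gene (Rsa10042673, 0.48). These 5 were picked for likeness to the R01 copy over the same libraries, and like that copy each was lowest in 30-day replicate 3. CRR1 had 8.06, 4.54 and 0.29 FPKM in the 30-day libraries.

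For AGL42-like the nearest were the cold-responsive KIN2-like (Rsa10019565, 0.41), with 12.41, 30.80 and 12.75 FPKM at 120 days and 0.40, 0.18 and 0.25 at 30 days, and the MYB factor EFM (Rsa10026401, 0.50), a repressor of FT in Arabidopsis. They were followed by Rsa10019903 (0.52), the transcription repressor OFP16 (Rsa10038514, 0.54) and COBRA-like protein 5 (Rsa10019667, 0.58). With the pseudocount of 1, the R04 copy of SOC1 lay nearer to AGL42-like (0.88) than to the R01 copy of SOC1 (1.25). That order depends on the pseudocount, since the R04 copy (0.67, 0.29 and 1.35 FPKM) and AGL42-like (0, 0.11 and 0 FPKM) were low at 30 days. By this measure the SOC1-like copies were not each other's nearest profile.

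The deposited annotation gives the SOC1-like copies the same 18 gene ontology terms, of which AGL42-like carries 8 beside 5 of its own. Terms carried by the SOC1-like copies alone include positive regulation of flower development and response to gibberellin, and those carried by AGL42-like alone include leaf senescence, abscission and floral organ senescence. The other genes under these terms, chosen from the annotation and not from values, were counted beside the background of 8.4% higher and 37.6% lower. Of 51 tested genes for positive regulation of flower development 3 rose and 21 fell, and of 13 for maintenance of inflorescence meristem identity 1 fell. Of 108 for response to gibberellin 13 rose and 37 fell. Of 142 for leaf senescence 14 rose and 61 fell, and of 6 for floral organ senescence 1 rose and 4 fell. The single abscission gene tested did not pass. After median centring, 2968 of all 21435 genes tested were higher and 2188 lower. The counts were then 5 higher and 1 lower for positive regulation of flower development and 20 and 21 for response to gibberellin. For leaf senescence they were 19 and 18, and for floral organ senescence 1 and 1.

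No m6A peak was listed in any of the 3 genes. The authors' deposited table of differential peaks holds 5476 peaks with an FDR of up to 0.0912, 5300 of them higher and 176 lower at 120 days, and lists at least 1 peak in 23.3% of the genes tested for expression. At mean levels of 5 to 10, 10 to 20 and 20 to 50 FPKM over the 6 libraries, classes that each hold 1 of the 3 genes, the share with a listed peak was 24.4%, 32.2% and 31.2%. The list holds differential peaks, so a peak of equal height at both ages would not be in it, and for AGL42-like the 30-day transcript was at or near 0.

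Of the 73 other MADS-box genes 5 had a listed peak (6.85%, beside 17.2% of all 30161 genes), each higher at 120 days in the authors' deposited table. Of the 30 tested for expression, 5 had one in the authors' deposited table (16.7%, beside 23.3% of all genes tested). AGL19 (Rsa10004026) was the only relative of SOC1 among them, with an exonic peak and a log2 fold of 0.404 in the authors' deposited table, while its transcript fell. The authors' deposited table gave log2 folds of 0.836 for MAF5-like (Rsa10016139) and 0.314 for SVP-like (Rsa10010012), both for peaks annotated to the 3′ UTR. It gave 0.607 for AGL6 (Rsa10026178), exonic, and 0.456 for AGL16 (Rsa10037151), in the 3′ UTR. Among the other upstream repressors, the authors' deposited table lists a peak in TOE2 (Rsa10022714, log2 fold 0.534) and in the DELLA gene RGA1 (Rsa10015653, 0.532). None of the listed upstream activators, partners or targets had one. Of the 18 flanking genes 3 had a listed peak, among them UTP:RNA uridylyltransferase 1 (Rsa10006203, log2 fold 0.309 in the authors' deposited table).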

How the data were processed

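Expression came from the 6 input libraries, grouped by the sample titles. Per the file headers, the authors deposited FPKM per gene and library, a log2 fold with p-value and q-value per gene, and a log2 fold, p-value and FDR per differential peak. Per the submitters' processing notes, fastp, FastQC, HISAT2, StringTie, HOMER and edgeR were used; versions, genome build, peak caller, strand handling and the assignment of shared reads are not given in the sources used here. Exon lengths are not in the files used, so reads could not be recovered from FPKM, and no counting interval is given. No value per immunoprecipitated library was used, so peaks carry the authors' values alone.

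Genes with at least 1 FPKM in at least 3 of 6 libraries were fitted with limma 3.58.1 in R 4.3.3 (eBayes with trend) on log2(FPKM + 1), which understates the change of low genes. P-values were 2-sided, adjusted by Benjamini-Hochberg over all 21435 genes, with a threshold of 0.05. The fit was tested on simulated data. Tables were joined in Python 3.11.15.

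The 3 genes and the gene lists, matched by words in the descriptions, were chosen with earlier results of these data known. The match of ULTRAPETALA 1 among the targets was removed after the files were read. Named list genes were up to 4 called genes with the smallest adjusted p per list, the tested copies of FLC, FT, FD, SVP, AGL24, AGL8 and SPL9 (at most 2 per name), and the 5 nearest profiles per gene. Other pseudocounts, filters, scalings, a replicate block and leaving out each library were tried.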

Additional observations from a re-analysis of the deposited data

How the results depend on the processing

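The log2 differences of the SOC1-like copies and AGL42-like stayed positive under every alternative run. The R04 copy was at 4.72 after median centring and 5.43 with a pseudocount of 0.1, and AGL42-like at 4.60 after median centring, 4.34 after quantile normalization and 7.11 with a pseudocount of 0.1. Leaving out 1 library gave 4.08 to 4.51 (R04 copy), 2.54 to 3.34 (R01 copy) and 4.07 to 4.28 (AGL42-like).

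Calls over all genes were 1801 higher and 8052 lower, and became 2968 and 2188 after median centring and 2654 and 2799 after quantile normalization. Leaving out 1 library gave 954 to 2197 higher and 3789 to 9166 lower. Without 120-day replicates 1, 2 and 3 there were 1148, 954 and 1075 higher and 5032, 3900 and 3789 lower, and without 30-day replicate 1 there were 5299 lower.

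Among the relatives of SOC1 (1 higher, 2 lower), 2 were higher after median centring, after quantile normalization, with no filter, with no trend and with a replicate block, 0 were higher at a mean of at least 5 FPKM, and 1 was lower after either other scaling; leaving out 1 library gave 1 to 2 higher and 1 to 2 lower. Among the repressors (4 higher, 13 lower), 8 were lower after either other scaling and at a mean of at least 5 FPKM; leaving out 1 library gave 1 to 4 higher, the 1 without 120-day replicate 1 or 2, and 9 to 14 lower. Among the activators (1 and 1), 2 were higher and 2 lower with no filter and 0 lower at a mean of at least 5 FPKM; leaving out 1 library gave 0 to 1 higher, the 0 without 120-day replicate 3, and 1 to 2 lower, the 2 without 30-day replicate 2. Among the partners and targets (2 and 2), 5 were higher after either other scaling, and 1 was higher and 1 lower at a mean of at least 5 FPKM; leaving out 1 library gave 2 to 5 higher, the 5 without 30-day replicate 1, and 2 to 3 lower. Among the other MADS-box genes (2 and 2), 0 were lower after either other scaling, 0 were higher and 0 lower at a mean of at least 5 FPKM, 4 were lower with no filter and 1 with a replicate block; leaving out 1 library gave 2 higher throughout and 0 to 3 lower. The stricter filter tests fewer genes; the other causes were not tested. The 27 named list genes kept their side of the threshold in 310 of 339 alternatives, lost the call in 24 and gained it in 5. No called gene changed direction, but in 14 of the 310 a gene called in neither fit changed sign; these were SPL9 Rsa10011266, AGL8 Rsa10019670, AGL24 Rsa10021770, FD-like Rsa10026475 and SVP Rsa10028999.

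Same-numbered libraries of the ages had correlated deviations from their age means (0.272, 0.142 and 0.081), not all over the 0.1 set for pairing, though each of the 6 correlated best with its own number. With the replicate block 1733 genes were higher and 6875 lower, 3 partners and targets were higher, AGL8 Rsa10001156 passed (limma adjusted p = 0.0184), and SVP-like Rsa10010012 (0.0622) and AGL80 Rsa10040177 (0.0573) did not. No peak was listed in the 3 genes at an FDR of up to 0.05 either. Read depth is unknown, which limits statements on genes near 0 FPKM.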
